A study of Mus musculus with 6 samples.

Results

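The transcripts of the mouse mitochondrial genome were followed in liver over the first 7 weeks of a treatment. The members are all genes whose GENCODE symbol starts with mt-, which gave 37 of the 54446 genes in the deposited table. They comprise 13 protein-coding genes, 2 ribosomal RNA genes and 22 transfer RNA genes, the full annotated gene set of the mouse mitochondrial chromosome. Poly-A RNA of mouse liver cells was sequenced at weeks 0, 2 and 7 of treatment, with 2 libraries a week and 6 in all. The series title names the treatment as MET/CAT and SB transposase, given or withheld; the labels do not expand CAT, and they give no route, promoter, age, sex or pooling of mice. The design text counts the weeks as weeks of treatment, and no untreated mice were labelled at weeks 2 or 7, so treatment and the passing of time cannot be told apart. The strain label of week 0 replicate 1 is a mixed line of FVB/N and C57BL/6, and the number after C57BL/ differs in each other library, so the background of those is unsure. Nothing in the labels shows that the 2 libraries of a week came from separate animals, so p-values measure only the spread between these libraries, which may be technical.

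Mitochondria keep a small circular genome of their own, which encodes core subunits of the respiratory chain and the ATP synthase together with the ribosomal and transfer RNAs needed to translate them. A dedicated RNA polymerase copies each strand into long precursors, and the transfer RNAs that lie between most of the other genes are cut out to release the messengers, an arrangement known as transfer RNA punctuation. Most of the messengers and the ribosomal RNAs then receive short A tails from a mitochondrial poly(A) polymerase, and hepatocytes, which are rich in mitochondria, hold large amounts of these RNAs. Fragments of mitochondrial DNA have also been copied into the nuclear chromosomes during evolution, where they are annotated as pseudogenes.

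Library totals ran from 49353453 to 58434358 deposited counts. The hepatocyte markers Alb, Apoa1, Ttr, Serpina1c, Tat and Hnf4a were present in every library, and their summed level was 90420 and 90961 CPM in week 0, 108610 and 114800 in week 2, and 77300 and 77588 in week 7 (CPM, counts per 1e6 counts of TMM-scaled library size). The higher sum of week 2 came from Alb alone, at 98368 and 92607 CPM in week 2, against 65921 and 65060 in week 0, while the other five were lower in week 2 than in week 0. Summed Kupffer cell, endothelial, stellate and erythroid markers were each lower at week 7 than at week 0 and higher at week 2, with Kupffer markers at 345 to 347, 463 to 469 and 245 to 248 CPM in week order. Single markers ran against these sums. The stellate gene Reln was higher in week 7 (53.4 and 53.0 CPM, against 32.0 and 34.3 in week 0), and Lrat, another stellate gene, was lower in week 2 (20.7 and 22.8 CPM, against 32.9 and 31.9 in week 0). The erythroid gene Alas2 was lower in week 2 (13.7 and 16.1 CPM, against 36.9 and 32.0 in week 0), and the endothelial genes Stab2, Pecam1 and Lyve1 overlapped between weeks 7 and 0. The T and NK cell, B cell and neutrophil sums were at most 5.32 CPM in every library, cholangiocyte sums lay between 3.92 and 9.74 CPM, and the neutrophil gene Ly6g had 0 counts in all libraries. The week 2 libraries carried Xist (13236 and 12804 counts, against at most 15 elsewhere) and 0 counts of Ddx3y (1897 to 2303 elsewhere). They were thus of female type and the other 4 of male type, so every comparison with week 2 changes sex and time together. The part of sex or of cell composition in the values that follow was not tested, and in bulk tissue fewer cells of a type and less RNA per cell cannot be told apart.

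The mt- genes took 7.22% and 6.48% of all counts in week 0, 6.98% and 6.79% in week 2, and 6.05% and 7.56% in week 7. The ranges of the 3 weeks overlapped, and the widest gap was between the 2 week 7 libraries. The weekly means were 6.85% ± 0.524 in week 0, 6.88% ± 0.130 in week 2, and 6.81% ± 1.07 in week 7 (SD, n = 2 each). No exact permutation test is useful for such a share, since 2 libraries against 2 cannot give a two-sided p below 0.333. With mt-Nd4 counted, the weekly means of this share thus differed by less than the replicates did. mt-Nd4, whose replicates differed strongly as given below, enters this result. Without mt-Nd4 the shares were 6.73% and 6.47% in week 0, 6.97% and 6.79% in week 2, and 6.05% and 7.06% in week 7. Week 2 then lay above week 0 in these shares of unscaled totals, narrowly (6.79% against 6.73%), while week 7 overlapped both. In TMM-scaled CPM, mt-Co1, mt-Nd2 and both ribosomal RNAs were lower in both week 2 libraries than in both week 0 libraries. mt-Nd1, mt-Nd5 and mt-Nd6 were higher and mt-Cytb overlapped, so this order of the shares is not read as a change.

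Most of these counts came from a few genes. Levels of different genes were compared per kb of annotated gene. mt-Co1, the catalytic subunit of cytochrome c oxidase (complex IV), ranked highest in every library, between 17914 and 21106 CPM per kb, and alone took 41.6% to 45.7% of all mt- counts. mt-Cytb, the core subunit of complex III, was second in every library at 8408 to 11815 CPM per kb, and the complex I subunits mt-Nd1 (6765 to 8662) and mt-Nd2 (5069 to 6668) came next in that order. The order of these 4 genes was the same in all 6 libraries. The large ribosomal RNA mt-Rnr2 (2262 to 3208 CPM per kb) and the complex I subunit mt-Nd5 (2314 to 2895) overlapped and did not keep a fixed order, and the small ribosomal RNA mt-Rnr1 (1311 to 2274) was below both in every library. mt-Nd6, the only protein-coding gene read from the other strand, stood lower at 330 to 585 CPM per kb. It overlaps mt-Nd5 by 14 bases, and the kit does not mark strand, so its reads cannot be separated from those of the opposite strand. Library preparation selected poly-A RNA, and the part of differing capture in these levels was not tested.

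**Figure D1:**
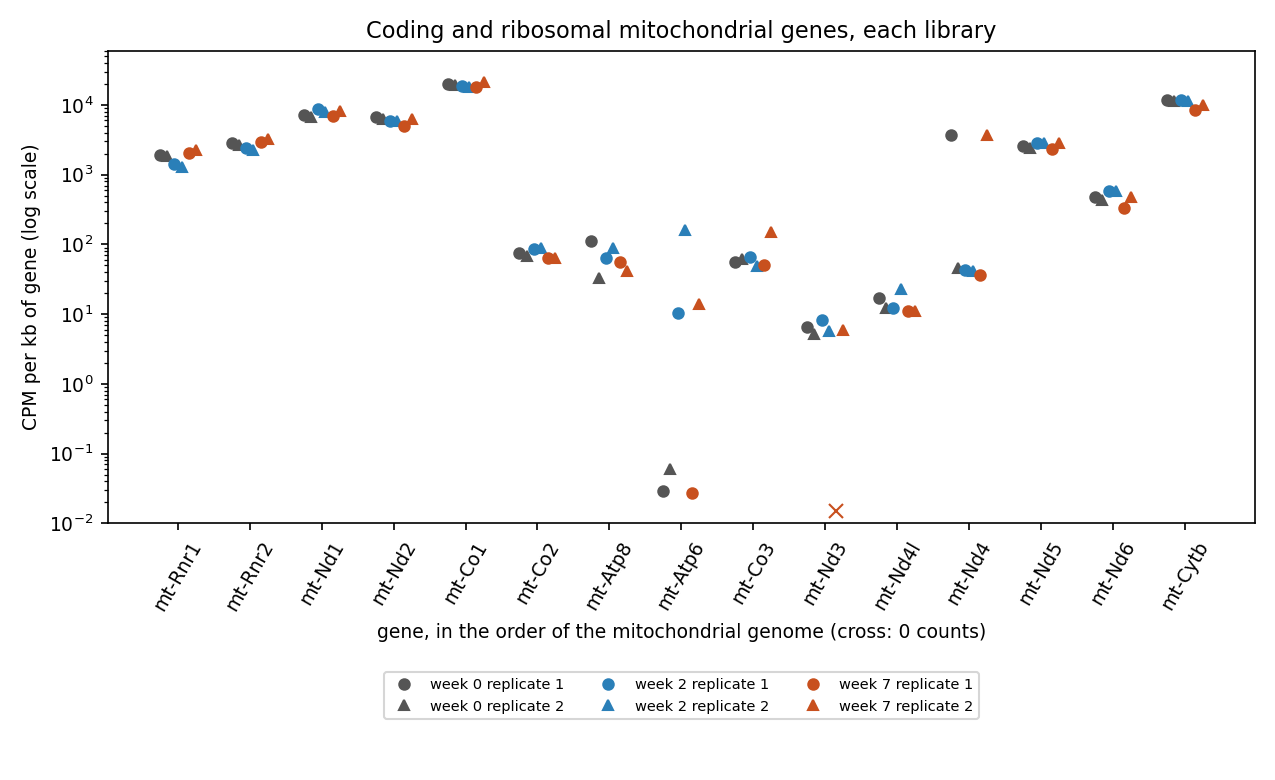
Level of each coding and ribosomal mitochondrial gene in CPM per kb (log scale), in the order of the mitochondrial genome from left to right; each point is 1 library, and the cross marks 0 counts. The genes from mt-Co2 to mt-Nd4l sit far below those on both sides, and mt-Nd4 lies high in 2 libraries and low in the other 4.

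A contiguous block of the genome, chrM:7013-11544 in GRCm38 coordinates, stood apart. It holds 7 coding genes in the order mt-Co2, mt-Atp8, mt-Atp6, mt-Co3, mt-Nd3, mt-Nd4l and mt-Nd4, all on the plus strand. Leaving mt-Nd4 aside, the median level of the other 6 was 22.9 to 69.3 CPM per kb in a library. It was 4018 to 4792 CPM per kb over the 8 coding and ribosomal genes outside the block, a ratio of medians of 63.3 to 194. The block was drawn from these same levels, so the ratio describes its genes and is no test. Per kb, the complex IV subunits mt-Co2 and mt-Co3 had 63.3 to 89.2 and 49.4 to 149 CPM, against 17914 to 21106 for mt-Co1, the subunit they assemble with.

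Sequence matches marked much of the same block, with mt-Atp8 inside it and mt-Co1 outside it as exceptions. Each mt- transcript was searched against all transcripts of the GENCODE M21 annotation, which covers annotated transcripts only and not the DNA between them. Within the block, mt-Co2, mt-Atp6, mt-Co3 and mt-Nd4l were identical to annotated pseudogenes on chromosome 1 over 681, 678, 783 and 294 bases, all but 1 to 3 bases of each gene. These copies are Gm28661 for mt-Co2, Gm10925 for mt-Atp6, Gm28437 for mt-Co3 and Gm10222 for mt-Nd4l. mt-Nd3 differed from Gm28438 by 1 base in 345. mt-Atp8 shared with Gm10925 only the 43 bases by which it overlaps mt-Atp6. Outside the block, mt-Rnr1, mt-Rnr2, mt-Nd1, mt-Nd2, mt-Nd5, mt-Nd6 and mt-Cytb had no annotated copy with 97% identity or more over at least 200 bases. mt-Co1 was the exception, with 483 bases matching Gm29216 on chromosome 1 at 99.8% and its whole 1545 bases matching Gm13340 on chromosome 2 at 97.6%. Reads that lie wholly inside an identical stretch cannot be assigned by sequence to the mitochondrial gene or to its nuclear copy. mt-Co1 differs from Gm13340 at 37 bases and mt-Nd3 from Gm28438 at 1, so reads that cover such a base can be told apart from that copy. The sources used here do not give the rule by which the authors assigned reads with several matches.

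The sequences below show how little separates a gene from its copy; they come from GENCODE M21 transcripts (GRCm38), 5′ to 3′. For mt-Nd3 (chrM:9459-9481, plus strand) and Gm28438 (chr1:24613097-24613119, minus strand) the capital is the single base that differs in the matched stretch, T3C counted from the first base of mt-Nd3.
mt-Nd3: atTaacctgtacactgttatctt
Gm28438: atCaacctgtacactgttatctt
For mt-Co1 (chrM:6390-6413, plus strand) and Gm29216 (chr1:24616165-24616188, minus strand) the capital likewise marks the single difference, A1066T counted from the first base of mt-Co1.
mt-Co1: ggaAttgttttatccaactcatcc
Gm29216: ggaTttgttttatccaactcatcc
For mt-Nd4 the match to Gm28439 stops inside the gene. Bases 847 to 906 of mt-Nd4 (chrM:11013-11072, plus strand) are shown, with the last bases also present in Gm28439 in capitals.
mt-Nd4: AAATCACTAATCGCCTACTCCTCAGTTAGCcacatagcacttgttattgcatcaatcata
The first 876 of its 1378 bases, 63.6%, are thus identical to Gm28439, and the rest had no near-identical annotated match.

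mt-Nd4, a proton-pumping membrane subunit of complex I, was abundant in 2 libraries only, and its replicates differed strongly. It had 251339 and 3004 counts in week 0, 3602 and 3451 in week 2, and 2756 and 258892 in week 7. It was thus high in week 0 replicate 1 and week 7 replicate 2, at 3654 and 3675 CPM per kb, and low in the other 4 libraries. In CPM the replicates were 80.8-fold apart at week 0, with replicate 1 higher, 99.2-fold apart at week 7, with replicate 2 higher, and 1.03-fold apart at week 2. Among the 1286 genes averaging 100 CPM or more, this was the largest gap between replicates at week 0 (log2 6.33) and at week 7 (log2 6.62 in size), where the second largest gaps were 2.46 and 2.89. Of those genes, 0.933% were over 2-fold apart in week 0, 0.544% in week 2, and 0.544% in week 7. mt-Nd4 averaged over 100 CPM only through its 2 high libraries, at 5035 and 5064 CPM, against 51.1 to 62.3 CPM in the other 4. Its rank is therefore a description of the gap and no separate support for it.

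The copy Gm28439 did not move with it. Its counts were 628 and 647 in week 0, 885 and 732 in week 2, and 591 and 581 in week 7. The copy thus differed little between the replicates of any week. When the counts of the copy were added to those of mt-Nd4, replicate 1 minus replicate 2 was 6.05 at week 0 and -6.34 at week 7 on the log2(CPM + 0.5) scale. The copy held at most 885 counts, so this sum could not have closed the gap. Reads that a counting rule left out of both genes would not appear in it, so the part of shared sequence was not tested. The test of weeks gave mt-Nd4 a log2 fold change of 0.00 at week 7 against week 0, with a standard error of 2.88, and one of -5.43 ± 3.49 (SE) at week 2 against week 0 (edgeR quasi-likelihood test, adjusted p = 1 and 0.420). These standard errors are derived from the test statistic and are approximate. The replicates lay 80.8-fold apart at week 0 and 99.2-fold at week 7, so neither a change nor its absence can be read from this gene. Leaving out single libraries moved the value for week 7 against week 0 between -5.64 and 5.36.

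**Figure D2:**
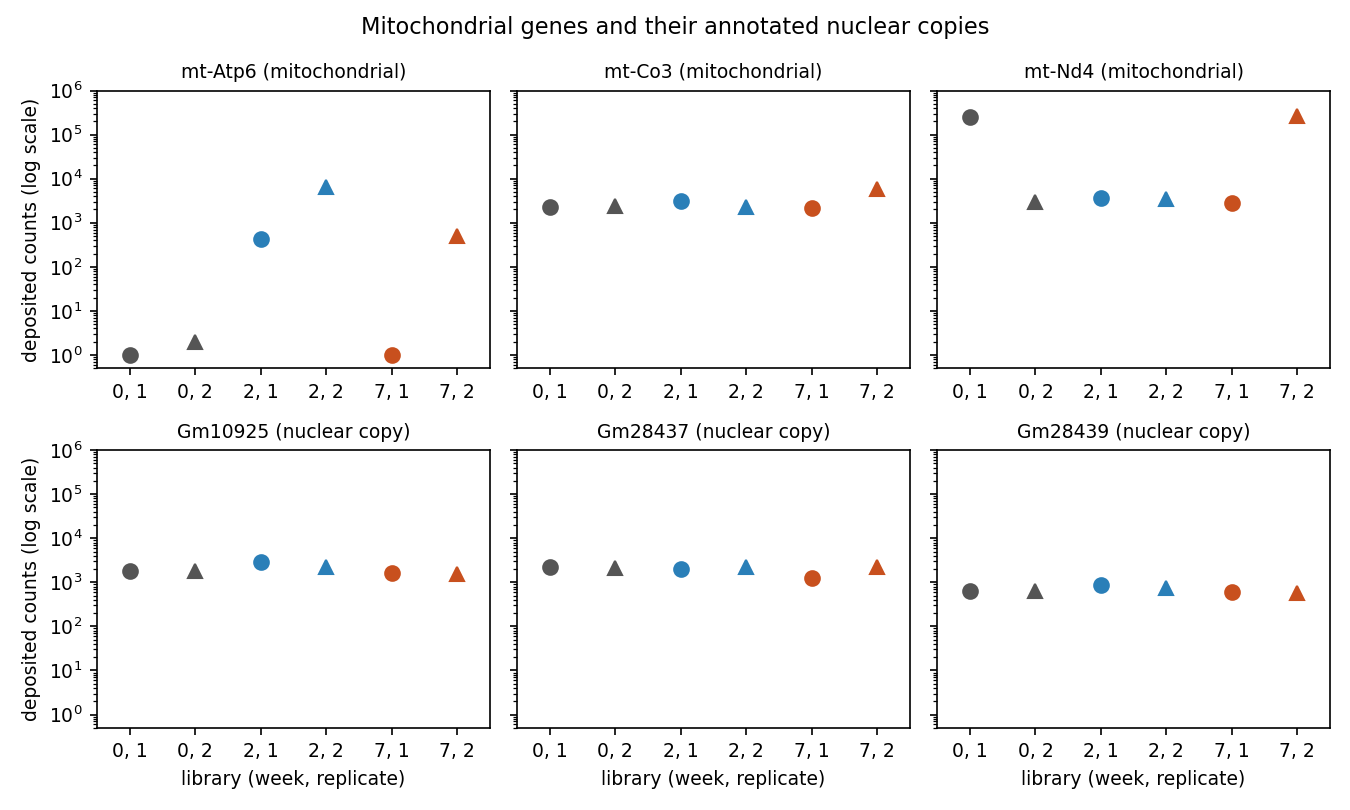
Deposited counts (log scale) of mt-Atp6, mt-Co3 and mt-Nd4 in the upper row and of their annotated nuclear copies in the lower row; each point is 1 library, named by week and replicate. mt-Nd4 reaches 251339 and 258892 counts in 2 libraries and 2756 to 3602 in the others, while Gm28439 stays between 581 and 885.

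Other genes of the block also differed between replicates. mt-Atp6, the proton-channel subunit of the ATP synthase, had 1 and 2 counts in week 0, 418 and 6476 in week 2, and 1 and 494 in week 7. Its level thus ran from almost nothing to 109 CPM, with a 15.7-fold gap inside week 2. The gap inside week 7 was 522-fold, with 1 count in replicate 1. Neither week 7 nor week 2 passed the edgeR test against week 0 (adjusted p = 0.458 and 0.222). DESeq2 called both (adjusted p = 0.0265 and 0.000183), but the week 7 fold change turned to -0.66 on the log2 scale in edgeR without week 7 replicate 2. Its copy Gm10925 held 1577 to 2841 counts throughout, more than mt-Atp6 in 5 of the 6 libraries. mt-Atp8, an accessory membrane subunit of the same enzyme, had 1138 and 330 counts in week 0, 785 and 1092 in week 2, and 615 and 439 in week 7. It was 3.33-fold apart between the week 0 replicates, and the 3 weeks overlapped.

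mt-Co3, a structural core subunit of complex IV, had 2218 and 2366 counts in week 0, 3112 and 2296 in week 2, and 2156 and 5970 in week 7. Here week 7 replicate 2 stood out, 2.92-fold above replicate 1. Its copy Gm28437 was also lower in week 7 replicate 1, at 1255 counts, than in the other libraries, at 2014 to 2272. The small complex I subunit mt-Nd3 had 112 and 86 counts in week 0, 170 and 119 in week 2, and 0 and 107 in week 7, so it was listed at 0 in a single library. mt-Nd4l, another small complex I subunit, had 168 to 407 counts and overlapping weeks; it also shares its last 7 bases with mt-Nd4. On the log2(CPM + 0.5) scale 2 of the 15 coding and ribosomal genes were more than 2-fold apart between replicates at week 0, 1 at week 2 and 4 at week 7. All of these lie in the block, and with the copies' counts added the week 7 number was 2. With edgeR over all 6 libraries mt-Atp8, mt-Co3 and mt-Nd3 did not pass, but each did without 1 library. mt-Co3 was called higher without week 7 replicate 1, at week 7 against week 0 and against week 2 (adjusted p = 0.0179 and 0.0108). mt-Nd3 was called lower in both comparisons without week 7 replicate 2 (0.00192 and 0.000931), which left the library listed at 0. mt-Atp8 was called lower at week 7 against week 0 without week 0 replicate 2 (0.0319) and higher at week 2 against week 0 without week 0 replicate 1 (0.0291).

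Between weeks, few mt- genes passed the test, which was run over all 15368 genes with enough counts. Of the 37 members 24 were tested: all 13 coding and both ribosomal genes and 9 of the 22 transfer RNA genes. For week 7 against week 0, 0 of the 24 were higher and 0 lower, where 13.8% of all tested genes passed (7.58% higher, 6.23% lower). Of all tested genes, 4200 had an unadjusted p under 0.05 in that comparison. DESeq2 called 2 mt- genes higher and 1 lower, and limma voom 0 higher and 1 lower. For week 2 against week 0, 1 was higher and 1 lower, where 18.6% of all genes passed (9.81% higher, 8.81% lower, or 1508 and 1354 genes, against 2007 and 913 with total-count scaling). For week 7 against week 2, 2 were higher and 1 lower, where 19.8% of all genes passed (10.1% higher, 9.73% lower). The shares of mt- genes called, 0, 2 and 3 of 24, were below the background of each comparison. The 24 include mt-Td, mt-Te, mt-Th, mt-Tq and mt-Tt, with at most 26 counts in a library, and genes of wide spread such as mt-Nd4 and mt-Atp6. Such genes can hardly pass the test, so the low shares are not read as a trait of the mt- genes. Comparisons that use the same week share its libraries, so they are not independent of each other.

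The ribosomal RNAs made up most of the calls. mt-Rnr1, the RNA of the small mitochondrial ribosomal subunit, had 1847 and 1787 CPM in week 0, 1352 and 1252 in week 2, and 1978 and 2171 in week 7. Both week 2 libraries were lower than all others and both week 7 libraries higher. Against week 0 the gene fell at week 2, by 0.48 ± 0.054 (SE) on the log2 scale (1302 ± 70.2 CPM at week 2, against 1817 ± 42.6 at week 0, SD, n = 2 each; edgeR adjusted p = 0.00118). It was higher at week 7 than at week 2 by a log2 fold change of 0.67 ± 0.055 (2075 ± 136 CPM at week 7, against 1302 ± 70.2 at week 2, SD, n = 2 each; edgeR adjusted p = 0.000229). Between week 7 and week 0 the log2 fold change was 0.19 ± 0.054 (edgeR adjusted p = 0.0659). That value passed the threshold with total-count scaling (edgeR adjusted p = 0.0120), with DESeq2 (0.0317), with only the 4 libraries compared (0.0437), and without week 2 replicate 1 (0.0442), week 2 replicate 2 (0.0422) or week 7 replicate 1 (0.0230).

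mt-Rnr2, the RNA of the large mitochondrial ribosomal subunit, followed the same order of weeks. It had 4563 and 4187 CPM in week 0, 3820 and 3578 in week 2, and 4693 and 5075 in week 7. The weeks again did not overlap. It was higher at week 7 than at week 2 by a log2 fold change of 0.40 ± 0.063 (4884 ± 270 CPM at week 7, against 3699 ± 171 at week 2, SD, n = 2 each; edgeR adjusted p = 0.0116). That call was lost without a filter on low counts (0.0575) and without week 7 replicate 2 (0.0657). Its difference at week 2 from week 0 was -0.24 ± 0.063 and did not pass (edgeR adjusted p = 0.0577). It passed with DESeq2 (0.00351), limma voom (0.0221), counts divided by 4 (0.0473) and without week 0 replicate 2 (0.0263). At week 7 against week 0 mt-Rnr2 passed with total-count scaling alone (0.0364). Leaving mt-Nd4 out of the sum, the 2 ribosomal RNAs made up 9.10% ± 0.114 of mt- counts in week 0, 7.51% ± 0.140 in week 2, and 10.6% ± 0.620 in week 7 (SD, n = 2 each). Neither has a near-identical annotated nuclear copy.

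mt-Co2, the subunit of complex IV that receives electrons from cytochrome c, was the remaining call and ran the other way. It had 51.2 and 47.1 CPM in week 0, 59.5 and 61.0 in week 2, and 44.2 and 43.3 in week 7. Both week 2 libraries were above all others. It was higher at week 2 than at week 0 by a log2 fold change of 0.29 ± 0.075 (60.3 ± 1.05 CPM at week 2, against 49.2 ± 2.87 at week 0, SD, n = 2 each; edgeR adjusted p = 0.0268), and lower at week 7 than at week 2, with a log2 fold change of -0.46 ± 0.076 (43.7 ± 0.606 CPM at week 7, against 60.3 ± 1.05 at week 2; edgeR adjusted p = 0.00288). The first of these did not pass without week 0 replicate 2 (0.152), without week 2 replicate 1 (0.0881) or without week 2 replicate 2 (0.121). This gene lies in the low block, and its reads cannot be told apart by sequence from those of Gm28661, which had 949 to 1342 counts. With the copy's counts added both calls were kept, at log2 fold changes of 0.23 and -0.35 (adjusted p = 0.0439 and 0.00636).

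**Figure D3:**
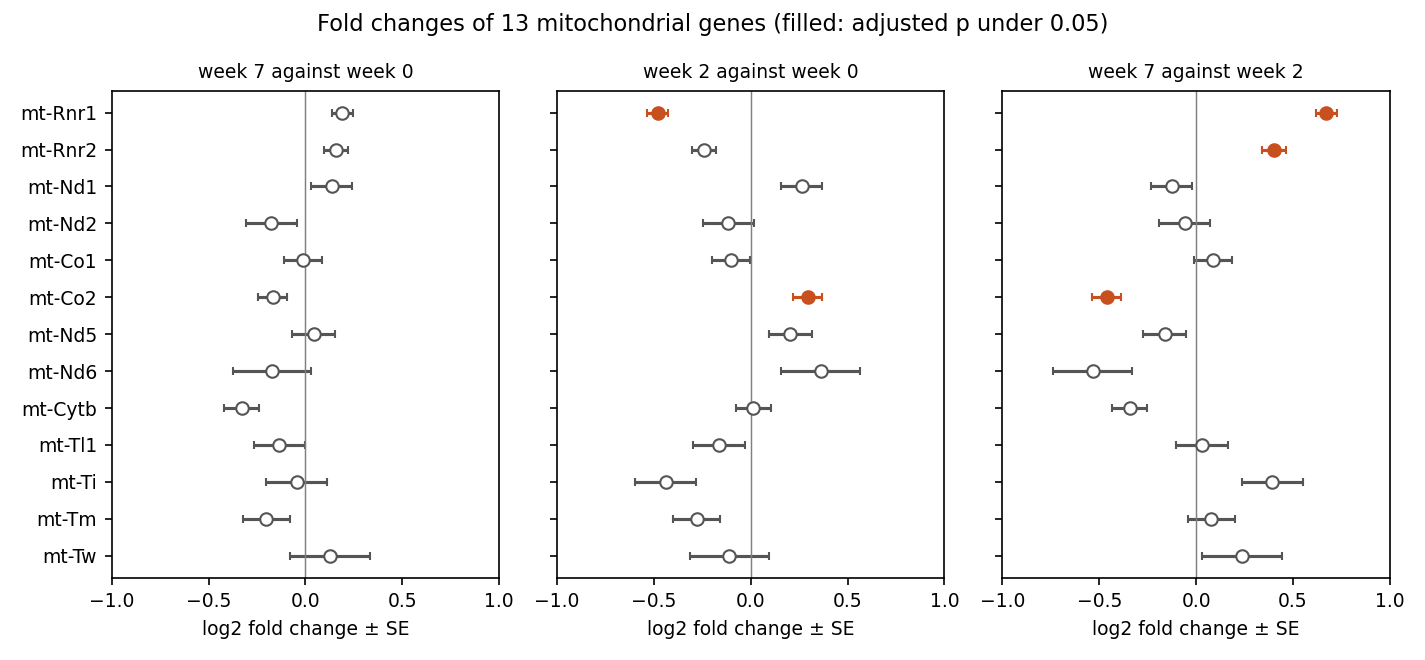
Log2 fold change with its standard error for 13 mitochondrial genes in the 3 comparisons of weeks. Filled points have an edgeR adjusted p under 0.05. The low-block genes mt-Atp8, mt-Atp6, mt-Co3, mt-Nd3, mt-Nd4l and mt-Nd4 are not shown. The 13 genes are both ribosomal RNA genes, 4 transfer RNA genes and the other coding genes. mt-Rnr1, mt-Rnr2 and mt-Co2 hold the filled points, and week 7 against week 0 has none.

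With edgeR over all 6 libraries the abundant messengers did not pass the test in any comparison, but several passed under other settings. mt-Cytb had the smallest adjusted p among them, with 13399 and 12855 CPM in week 0, 13517 and 12970 in week 2, and 9619 and 11272 in week 7. Both week 7 libraries were below all others. The log2 fold change was -0.33 ± 0.090 at week 7 against week 0 (10445 ± 1168 CPM at week 7, against 13127 ± 385 at week 0, SD, n = 2 each; edgeR adjusted p = 0.117) and -0.34 ± 0.090 at week 7 against week 2 (adjusted p = 0.0880). For week 7 against week 0 it passed with DESeq2 (0.000566), with limma voom (0.0173), without week 7 replicate 1 (0.0126) and without week 7 replicate 2 (0.000916). It passed in those same 4 settings for week 7 against week 2 (0.000215, 0.00800, 0.00628 and 0.000440) and with total-count scaling (0.0341). mt-Co1 had 31123 and 29623 CPM in week 0, 28956 and 27724 in week 2, and 27677 and 32609 in week 7. The week 7 pair spanned all other values, and its log2 fold change of -0.01 against week 0 turned to 0.02 with total-count scaling. It passed at week 7 against week 2 without week 7 replicate 1 (log2 fold change 0.20, adjusted p = 0.0396).

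Of the complex I messengers, mt-Nd1, which lines the quinone-binding site, had 6828 and 6474 CPM in week 0, 8289 and 7668 in week 2, and 6675 and 7942 in week 7. Week 2 lay above week 0 without overlap (log2 fold change 0.26 ± 0.107, edgeR adjusted p = 0.216). This passed with DESeq2 (0.0186), with only the 4 libraries compared (0.0340) and without week 7 replicate 1 (0.0369) or week 7 replicate 2 (0.0442). mt-Nd5, a proton-pumping subunit, had 4687 and 4400 CPM in week 0, 5280 and 5183 in week 2, and 4221 and 5137 in week 7, again with week 2 above week 0 (0.20 ± 0.111, adjusted p = 0.332). It passed with only the 4 libraries compared (0.00746) and without either week 7 library (0.00493 and 0.00498). Its difference at week 7 from week 0 passed without week 7 replicate 1 (log2 fold change 0.18, adjusted p = 0.0344), and that at week 7 from week 2 without week 7 replicate 2 (-0.31, 0.00264). mt-Nd6 had 247 and 224 CPM in week 0, 302 and 304 in week 2, and 171 and 247 in week 7, with a log2 fold change of 0.36 ± 0.204 at week 2 against week 0 (adjusted p = 0.344) and of -0.53 ± 0.204 at week 7 against week 2 (adjusted p = 0.187). The first passed with only the 4 libraries compared (0.00351) and without week 7 replicate 1 (0.00250) or week 7 replicate 2 (0.00246). The second passed with limma voom (0.0290), scaled to the abundant mt- genes (0.00998), and without week 7 replicate 1 (0.0215) or week 7 replicate 2 (0.000165). At week 7 against week 0 mt-Nd6 passed without week 7 replicate 2 (log2 fold change -0.46, adjusted p = 0.00491). mt-Nd2, another membrane subunit, had 6921 and 6489 CPM in week 0, 6212 and 6164 in week 2, and 5262 and 6618 in week 7, and week 7 overlapped both other weeks. Without week 7 replicate 2 it was called lower at week 7 than at week 0 (log2 fold change -0.35, adjusted p = 0.00273) and at week 7 than at week 2 (-0.23, 0.00888). Its difference at week 2 from week 0 passed without either week 7 library (log2 fold change -0.11 in both, adjusted p = 0.0477 and 0.0466). In week 7 replicate 1 the levels of mt-Nd1, mt-Nd2, mt-Co1, mt-Nd5, mt-Nd6, mt-Cytb and both ribosomal RNAs were all below those in replicate 2, by 1.08-fold to 1.44-fold. Over the 13 coding genes the median log2 fold change was -0.17 at week 7 against week 0, 0.20 at week 2 against week 0 and -0.34 at week 7 against week 2, beside medians of 0.00, 0.01 and 0.00 over all genes tested. The first of these turned to 0.025 without week 0 replicate 1 and to 0.070 without week 7 replicate 1, and was -0.38 without week 7 replicate 2. The second was 0.056 without week 0 replicate 2 and 0.024 with copies added, and the third -0.18 both without week 2 replicate 2 and with copies added. The coding genes share precursor transcripts and the low block enters these medians, so they are given as a description.

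The abundant genes were also set against mt-Co1 in the same library, which needs no scaling between libraries. mt-Cytb had 43.1% and 43.4% of the mt-Co1 counts in week 0, 46.7% and 46.8% in week 2, and 34.8% and 34.6% in week 7. The 3 weeks were clearly apart, with week 7 lowest. mt-Rnr1 had 5.94% and 6.03% in week 0, 4.67% and 4.52% in week 2, and 7.15% and 6.66% in week 7. mt-Rnr2 had 14.7% and 14.1%, 13.2% and 12.9%, and 17.0% and 15.6% in the same order of weeks. Both ribosomal RNAs were thus lowest relative to mt-Co1 at week 2 and highest at week 7, without overlap. mt-Nd1 had 21.9% and 21.9% in week 0, 28.6% and 27.7% in week 2, and 24.1% and 24.4% in week 7. mt-Nd5 had 15.1% and 14.9%, 18.2% and 18.7%, and 15.3% and 15.8%, and like mt-Nd1 it was highest at week 2. The ratio of mt-Nd6 was 0.793% and 0.757% in week 0, 1.04% and 1.10% in week 2, and 0.618% and 0.757% in week 7, with weeks 7 and 0 overlapping. The ratio of mt-Nd2 was 22.2% and 21.9%, 21.5% and 22.2%, and 19.0% and 20.3%, with weeks 2 and 0 overlapping. A ratio to mt-Co1 shows unequal change, not which of the 2 genes changed, and 2 libraries against 2 cannot reach a two-sided exact p under 0.333, so no test is given.

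**Figure D4:**
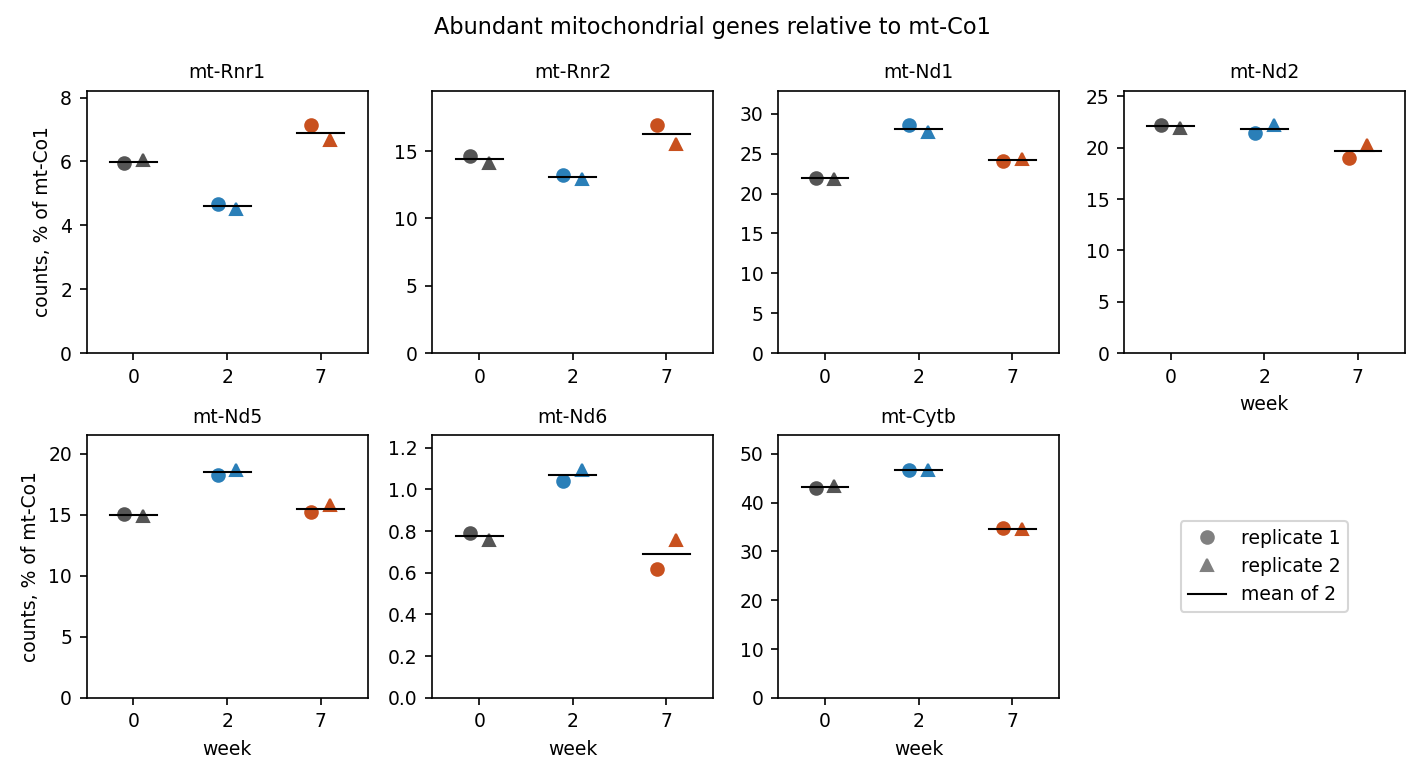
Counts of 7 abundant mitochondrial genes as a percentage of mt-Co1 counts in the same library, by week; circles are replicate 1, triangles replicate 2 and lines the mean of both, and every axis starts at 0. mt-Cytb is lowest at week 7, near 35% of mt-Co1, and both ribosomal RNAs are lowest at week 2.

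Among the 22 transfer RNA genes, 4 held 96.3% to 97.3% of transfer RNA counts. These were mt-Tl1 for leucine, mt-Ti for isoleucine, mt-Tm for methionine and mt-Tw for tryptophan. The genes are 67 to 75 bases long, and the table does not show whether the counted RNA was mature transfer RNA or part of a longer transcript. All 4 adjoin mt-Nd1 or mt-Nd2 on the same strand. A place beside an abundant gene on the same strand was not particular to them. mt-Tv, which fills the space between mt-Rnr1 and mt-Rnr2, had 2 to 9 counts in a library. mt-Tl2, which ends at the base before mt-Nd5, had 3 to 7, and mt-Tt, which begins at the base after mt-Cytb, had 11 to 26. The coordinates of the 4 genes with most counts are as follows. mt-Tl1 (chrM:2676-2750) fills the space between mt-Rnr2 and mt-Nd1, mt-Ti (chrM:3706-3774) follows mt-Nd1, mt-Tm (chrM:3845-3913) ends at the base before mt-Nd2, and mt-Tw (chrM:4950-5016) follows mt-Nd2. Their sequences from GENCODE M21 (GRCm38, plus strand, 5′ to 3′) are given to show these borders, with bases that the annotation also assigns to a neighbouring gene in capitals.
mt-Tl1: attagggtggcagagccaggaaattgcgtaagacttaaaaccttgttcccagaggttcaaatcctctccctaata
mt-Ti: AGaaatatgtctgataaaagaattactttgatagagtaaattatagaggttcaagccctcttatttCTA
mt-Tm: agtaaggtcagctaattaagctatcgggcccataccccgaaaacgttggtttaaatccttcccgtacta
mt-Tw: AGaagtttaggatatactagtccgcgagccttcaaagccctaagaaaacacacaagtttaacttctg
mt-Ti and mt-Tw begin with 2 bases that belong also to mt-Nd1 and mt-Nd2, and mt-Ti ends in 3 bases shared with mt-Tq on the opposite strand.

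Transfer RNA counts summed to 2964 to 3419 in a library. mt-Tl1 had 1195 and 1051 counts in week 0, 1245 and 1189 in week 2, and 989 and 1195 in week 7, and the weeks overlapped. mt-Ti had 972 and 923, 934 and 764, and 878 and 1082 in week order, and its log2 fold change at week 2 against week 0 was -0.44 (edgeR adjusted p = 0.0881). mt-Tm had 767 to 872 counts and mt-Tw 187 to 250. None of these passed the test in any of the 3 comparisons. The other 18 genes had at most 26 counts in every library, among them mt-Td, mt-Te, mt-Th, mt-Tq and mt-Tt, which were tested and not called. mt-Ts1 and mt-Tk had 0 counts in all 6 libraries.

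Nuclear genes whose products make, process or partner these RNAs were read from 6 lists. Of 20 genes for mitochondrial DNA transcription and replication, 0 were higher and 2 lower at week 7 against week 0. Tfb2m, the transcription factor that opens the mitochondrial promoter, fell by 0.40 ± 0.097 (SE) on the log2 scale (21.2 and 19.7 CPM at week 7, against 26.2 and 27.7 at week 0; edgeR adjusted p = 0.0271). Twnk, the replicative helicase, fell by 0.31 ± 0.087 (26.0 CPM against 32.2, in the same order; adjusted p = 0.0452). At week 2 against week 0 none of the 20 passed, Polg2 being nearest (adjusted p = 0.102) and then Exog (0.123). At week 7 against week 2, 0 were higher and 2 lower, Twnk and the exonuclease Mgme1 (log2 fold change -0.76, adjusted p = 0.0191). The list thus had 10%, 0% and 10% of its genes called in these 3 comparisons, beside 13.8%, 18.6% and 19.8% of all genes tested in either direction. All its calls were lower, where 6.23% of all genes were called lower at week 7 against week 0 and 9.73% at week 7 against week 2. With so few calls, the gaps are not read as a result.

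Of 37 tested genes for mitochondrial RNA processing, stability and decay, 1 was higher and 1 lower at week 7 against week 0. Slirp, which with Lrpprc forms a complex that stabilises mitochondrial messengers, was higher (24.7 CPM at week 7, against 17.4 at week 0; log2 fold change 0.51 ± 0.134, edgeR adjusted p = 0.0378). Trnt1, which adds the CCA end to transfer RNAs, was lower (8.04 CPM, against 14.4; -0.84 ± 0.171, adjusted p = 0.0124). At week 2 against week 0, Slirp was higher again, while Lrpprc (88.8 CPM at week 2, against 106 at week 0), the RNA granule protein Grsf1 (99.1 against 114) and the helicase Supv3l1 (12.9 against 18.4) were lower, a count of 1 higher and 3 lower. At week 7 against week 2, 5 were higher and 0 lower. They included Lrpprc (110 CPM at week 7, against 88.8 at week 2; log2 fold change 0.31 ± 0.065, adjusted p = 0.00992), Grsf1 (116 against 99.1), Fastkd1 and the pseudouridine synthase Trub2. The calls were 5.41%, 10.8% and 13.5% of the list for week 7 against week 0, week 2 against week 0 and week 7 against week 2. Of all genes tested, 13.8%, 18.6% and 19.8% were called in either direction. At week 7 against week 2 all calls of the list were higher, where 10.1% of all genes were called higher. With so few calls, the gaps are not read as a result. Median log2 fold changes of the list were -0.07, -0.17 and 0.07 for week 7 against week 0, week 2 against week 0 and week 7 against week 2.

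Regulators of mitochondrial biogenesis were called in the higher direction, 4 of 13 tested at week 7 against week 0 and 0 in the lower. That was 30.8% of the list, beside 13.8% of all genes tested. Myc, a growth-promoting transcription factor, had 13.3 and 12.2 CPM at week 7, against 2.88 and 2.61 at week 0 (4.64-fold, log2 fold change 2.21 ± 0.184, edgeR adjusted p = 0.000106). The coactivator Ppargc1a had 8.47 and 7.90 CPM at week 7, against 3.43 and 3.11 at week 0 (log2 fold change 1.32 ± 0.207, adjusted p = 0.00355). Its relative Ppargc1b (log2 fold change 0.91) and the nuclear receptor Esrra (0.34) made up the count. At week 2 against week 0, 1 passed, Ppargc1a, with 12.9 and 9.17 CPM at week 2, against 3.43 and 3.11 at week 0 (adjusted p = 0.000447), or 7.69% of the list beside 18.6% of all genes. At week 7 against week 2, 4 were higher and 0 lower, namely Myc, Esrra, Ppargc1b and the fatty-acid receptor Ppara, or 30.8% beside 19.8%. The total mt- share beside these changes was that given above, with overlapping weeks when mt-Nd4 was counted. Without mt-Nd4, week 2 lay narrowly above week 0 in shares of unscaled totals, which is not read as a change, as given above.

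Among 22 mitochondrial aminoacyl-tRNA synthetases and related genes, 2 were higher and 0 lower at week 7 against week 0, Gars (63.1 CPM at week 7, against 42.9 at week 0; edgeR adjusted p = 0.00139), which serves the cytosol as well, and Lars2 (13.8 against 9.34; adjusted p = 0.0344). At week 2 against week 0, 0 were higher and 3 lower (Nars2, Iars2 and Qrsl1), and at week 7 against week 2, 3 were higher and 0 lower (Gars, Iars2 and Qrsl1). These are 9.09%, 13.6% and 13.6% of the list, beside 13.8%, 18.6% and 19.8% of all genes tested in either direction. In the direction of these calls the shares of all genes were 7.58% higher, 8.81% lower and 10.1% higher. With so few calls, the gaps are not read as a result. Of 78 mitochondrial ribosomal protein genes, 2 were higher (Mrps2 and Mrps17) and 4 lower (Mrps27, Mrpl1, Mrpl18 and Mrpl50) at week 7 against week 0, 1 higher and 4 lower at week 2 against week 0, and 3 higher and 3 lower at week 7 against week 2. These are 7.69%, 6.41% and 7.69% of the list, below the background of each comparison. Whether these genes differ in their course from mt-Rnr1 and mt-Rnr2 was not tested.

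The nuclear-encoded partners of the mt- proteins in complex I, complex III, complex IV and the ATP synthase were called in the lower direction. Of 75 tested, 0 were higher and 20 lower at week 7 against week 0, which is 26.7% of them beside 13.8% of all genes tested, with a median log2 fold change of -0.16. Cox7c, a small subunit of complex IV, had 149 and 150 CPM at week 7, against 214 and 223 at week 0 (log2 fold change -0.55 ± 0.044, edgeR adjusted p = 8.72e-05). Ndufa4 (155 CPM at week 7, against 202 at week 0), Cox7b (156 against 202) and the ATP synthase subunit Atp5k (107 against 136) also fell. At week 2 against week 0, 1 was higher, the complex I subunit Ndufs8, and 7 lower, and at week 7 against week 2, 0 were higher and 17 lower, led by Cox7c, Cox6c, Atp5j and Cox7b. Of the list 10.7% passed at week 2 against week 0, below the 18.6% of all genes. At week 7 against week 2 it was 22.7%, all lower, beside 19.8% of all genes in either direction and 9.73% lower. At week 7 against week 0 the 13 mt- coding genes of the same complexes, with a median log2 fold change of -0.17, did not pass the edgeR test. That median is the value of mt-Co2, a gene of the low block, and it moved between -0.38 and 0.070 when single libraries were left out. The difference between the 2 sets was not tested.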

How the data were processed

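Per the labels' protocols, the TruSeq V2 kit turned poly-A enriched RNA into libraries for paired-end sequencing. Bowtie 0.12.2 and mm8 appear, without a role, in the submitters' processing notes; the sources used here do not give the counting program or its rule for reads with several matches. The authors deposited estimated counts for Ensembl genes without depth scaling; all were whole, so rounding changed 0 of them. Low values were stepped (68.3% to 69.6% of values from 4 to 43 in a library were a multiple of 4 or 1 above), so counts may exceed read pairs. As some identifiers are younger than mm8, the build of the counts is unsure, and coordinates, lengths and sequences are those of GENCODE M21 on GRCm38, to which 54409 identifiers matched. Precision is limited by 2 libraries a week.

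Groups came from the sample titles. With edgeR 4.0.16 in R 4.3.3, genes were kept with filterByExpr, libraries scaled with TMM, and the 3 weeks were fitted by robust quasi-likelihood over the 6 libraries together, leaving 3 residual degrees of freedom (common coefficient of biological variation 0.209). P-values were two-sided and adjusted by the Benjamini-Hochberg method over all genes tested. Calls were made at an adjusted p under 0.05. Each standard error of an edgeR log2 fold change is its size divided by the square root of the quasi-likelihood F statistic, an approximate value. Levels are TMM-scaled CPM with mean ± SD. Replicate gaps were taken as log2(CPM + 0.5). Near-identical copies were found with BLAST+ 2.17.0 (97% identity, 200 bases). All coding and ribosomal mt- genes are given. Transfer RNA genes are named where they were tested or had the most counts. mt-Ts1, mt-Tk, mt-Tv and mt-Tl2, outside that rule, were named after their values were seen. Of each nuclear list the called members of smallest adjusted p are named, up to 4 a direction, or the 2 nearest where none was called. The members and lists were chosen with earlier results of these data known. Alternatives used other scalings and filters, DESeq2 1.42.0, limma 3.58.1 voom, fewer libraries, a replicate block, counts divided by 4 and copies added; scaling to 8 abundant mt- genes was chosen after seeing the data. Tables and figures used Python 3.11.15, pandas 2.3.3 and matplotlib 3.10.9.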

Additional observations from a re-analysis of the deposited data

How the results depend on the processing

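The mt- results were limited by 2 libraries a week, by the sex difference of week 2 and, in the low block, by sequence shared with nuclear copies; counts of 1 or 2, as for mt-Atp6, carry large counting error. mt-Rnr1 kept its calls at week 2 against week 0 and at week 7 against week 2 in every alternative run, its log2 fold change lying between -0.54 and -0.39 and between 0.60 and 0.74. Where a value below changed, the cause was not tested. For week 7 against week 0, mt- genes called higher were 2 with total-count scaling, 2 with DESeq2 and 1 with only the 4 libraries compared, and mt- genes called lower were 1 with DESeq2 and 1 with limma voom. For week 2 against week 0, those called higher were 0 at an adjusted p under 0.01, 3 with DESeq2, 4 with only the 4 libraries and 0 scaled to the abundant mt- genes, and those called lower 2 with DESeq2, 2 with voom and 2 with counts divided by 4. For week 7 against week 2, those called higher were 1 at an adjusted p under 0.01 and 1 with no filter, and those called lower 2 with total-count scaling, 2 with DESeq2 and 3 with voom. Scaled to the abundant mt- genes, mt-Co2 had adjusted p = 0.159 at week 2 against week 0 and 0.0529 at week 7 against week 2. Genes called in all were 2123, 2862 and 3040 for week 7 against week 0, week 2 against week 0 and week 7 against week 2, and 1008, 1574 and 1632 at an adjusted p under 0.01.

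Without single libraries, genes called ranged over 1298 to 1856 (week 7 against week 0), 1801 to 2752 (week 2 against week 0) and 1842 to 2961 (week 7 against week 2). In the same order, mt- genes called higher ranged over 0 to 3, 0 to 4 and 1 to 4, and those called lower over 0 to 4, 1 to 2 and 1 to 6; the 6 came without week 7 replicate 2. A week then had 1 library, which was assumed to vary like the others. The median log2 fold change of the 13 coding genes ranged over -0.38 to 0.070, 0.056 to 0.30 and -0.45 to -0.18 in the same order, and with copies added it was -0.12, 0.024 and -0.18. Log2 fold changes that turned sign in this way for week 7 against week 0 were those of mt-Atp6 (-0.66 to 8.20), mt-Atp8 (-1.19 to 0.55), mt-Co1 (-0.13 to 0.10), mt-Co3 (-0.23 to 1.32), mt-Nd3 (-9.77 to 0.057), mt-Nd4 (-5.64 to 5.36), mt-Nd5 (-0.10 to 0.18), mt-Nd6 (-0.46 to 0.070), mt-Ti (-0.25 to 0.13) and mt-Tl1 (-0.32 to 0.033). For week 2 against week 0 they were mt-Atp8 (-0.53 to 1.20), mt-Co3 (-0.27 to 0.15), mt-Cytb (-0.019 to 0.044), mt-Nd3 (-0.0051 to 0.50) and mt-Nd4l (-0.27 to 0.66). For week 7 against week 2 they were mt-Co1 (-0.034 to 0.20), mt-Co3 (-0.18 to 1.36), mt-Nd2 (-0.23 to 0.10), mt-Nd4 (-0.21 to 6.42), mt-Tl1 (-0.16 to 0.19) and mt-Tm (-0.0042 to 0.16).

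Other reversals for week 7 against week 0 were mt-Co1 at 0.025 with total-count scaling and 0.035 scaled to the abundant mt- genes, mt-Atp6 at -0.028 with copies added, and mt-Nd4 at -0.019 with upper-quartile scaling, -0.23 with voom and -0.023 scaled to the abundant mt- genes. mt-Co3 was at 0.045 with total-count scaling for week 2 against week 0, and mt-Tl1 at -0.0255 with upper-quartile and -0.0258 with total-count scaling for week 7 against week 2. The mt- share was 8.21% (week 0), 7.89% (week 2) and 8.15% (week 7) of counts without Mup and Alb genes, and 6.24% and 6.36% for coding genes only at weeks 0 and 2. With copies added, 2 genes in place of 4 were over 2-fold apart between the week 7 replicates.

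The replicate numbers of the titles were not found to pair the libraries, since same-numbered libraries deviated together with correlations of -0.0019, -0.0146 and -0.0130. With the replicate block, 1702, 2436 and 2620 genes were called for week 7 against week 0, week 2 against week 0 and week 7 against week 2, and the numbers of mt- genes called were those of the fit without it.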
